A study of Mus musculus with 8 samples.

Results

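The hormone genes of the pancreatic islet were followed in RNA-seq libraries of mouse islets lacking *Itgb1*, which encodes the integrin β1 subunit that ties cells to the extracellular matrix (ECM). The 8 genes were *Ins1*, *Ins2*, *Iapp*, *Gcg*, *Sst*, *Ppy*, *Ghrl* and *Ucn3*, taken by symbol from a count table of 24091 genes, and all 8 passed the filter on low counts. The control group is labelled wild-type and the mutant group Ngn3-Cre, itgb1-/-, both on C57BL/6, with 4 libraries each from mice 6 weeks old. In the mutants, called *Itgb1*ΔEndo/ΔEndo by the study, floxed *Itgb1* is deleted by a Cre that Ngn3 drives in endocrine progenitors, so endothelial, stromal and exocrine cells of the same islets keep the gene. The labels do not say whether the controls carry Cre or a floxed allele. Each RNA sample came from 10 to 30 islets that had recovered overnight in medium with 5.8 mmol/l glucose. No label ties a library to a mouse. For a plot of these data 3 animals per genotype are listed, beside the 4 libraries deposited, and whether some libraries share a mouse is not stated. The p-values therefore reflect library-to-library spread, which may be technical in part.

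Each islet hormone belongs mainly to one endocrine cell type. β-cells make insulin, which lowers blood glucose and in the mouse comes from a pair of genes, together with amylin (*Iapp*) and, once mature, urocortin 3 (*Ucn3*). α-cells make glucagon, which raises blood glucose, and δ-cells make somatostatin, which restrains both, while PP cells and the rare ε-cells make pancreatic polypeptide and ghrelin. All 8 genes encode precursors that enter the secretory pathway, and most are cut into the active peptide inside secretory granules.

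The insulin genes are close relatives, so the sequence that they share was examined first. *Ins1* lies at chr19:52264297-52265009 on the plus strand of GRCm38 and *Ins2* at chr7:142678656-142679726 on the minus strand. Reads of 50 bases can be assigned to one of the genes wherever the transcripts differ. Only 7 windows of that length in *Ins1* also occurred in *Ins2*, which is 0.691% of the windows of the *Ins1* transcript and up to 2.82% of those of an *Ins2* transcript. All 7 fall in the longest identical run, of 56 bases (chr19:52264894-52264949 of GRCm38), of which 54 are annotated as coding sequence. It is shown because a read wholly inside it matches both genes and would be dropped by the counting, which leaves the rest of each transcript to tell *Ins1* and *Ins2* apart.
Ins1 and Ins2 shared run: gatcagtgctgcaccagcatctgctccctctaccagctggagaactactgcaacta
For *Gcg*, *Sst*, *Ppy*, *Ucn3* and *Iapp*, no window of 50 bases occurred in a transcript of another gene. *Iapp* (chr6:142298425-142303819, plus strand) lies wholly within the span of *Slco1a5* on the other strand, and *Slco1a5* held 58 to 178 counts per library where *Iapp* held 306037 to 955256. *Ghrl* (chr6:113716119-113719911, minus strand) overlaps Gm44033 on the other strand by 695 bases. In 5 of 7 *Ghrl* transcripts, 8.55% to 23.1% of windows also lay in Gm44033, which has no row in the table. Counting without strand cannot tell reads of *Ghrl* and of that partner apart.

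Promoter sequences show which motif letters the hormone genes hold before their starts, and which they lack. RefSeq (GRCm38.p6) gave the 250 bases before the start of 7 of the 8 genes, and those of 5 genes that the results turn on are printed here. Capitals mark, on either strand, the homeodomain core TAAT (ATTA on the other strand), the E box CANNTG and the cyclic AMP response element TGACGTCA. Pdx1 is a homeodomain factor of β-cells, and NeuroD1 is an E box factor of all islet endocrine cells. The regions are chr19:52264047-52264296 (plus), chr6:142298175-142298424 (plus), chr13:3945350-3945599 (minus), chr2:62483654-62483903 (minus) and chr16:23890845-23891094 (minus), in the order printed.
Ins1: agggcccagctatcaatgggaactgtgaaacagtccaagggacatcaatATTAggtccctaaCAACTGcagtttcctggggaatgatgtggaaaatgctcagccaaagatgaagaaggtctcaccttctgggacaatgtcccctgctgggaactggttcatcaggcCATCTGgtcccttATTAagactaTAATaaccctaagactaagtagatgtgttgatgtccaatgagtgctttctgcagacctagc
Iapp: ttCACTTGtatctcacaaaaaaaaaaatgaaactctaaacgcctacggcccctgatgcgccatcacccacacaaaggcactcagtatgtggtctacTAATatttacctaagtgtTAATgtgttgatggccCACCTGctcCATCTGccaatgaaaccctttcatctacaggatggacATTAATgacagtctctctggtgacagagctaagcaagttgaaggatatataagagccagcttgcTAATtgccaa
Ucn3: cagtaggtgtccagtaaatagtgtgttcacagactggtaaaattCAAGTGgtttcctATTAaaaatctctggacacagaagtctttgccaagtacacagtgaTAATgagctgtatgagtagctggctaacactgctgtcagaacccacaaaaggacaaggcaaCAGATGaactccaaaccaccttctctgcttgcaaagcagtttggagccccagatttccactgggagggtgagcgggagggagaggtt
Gcg: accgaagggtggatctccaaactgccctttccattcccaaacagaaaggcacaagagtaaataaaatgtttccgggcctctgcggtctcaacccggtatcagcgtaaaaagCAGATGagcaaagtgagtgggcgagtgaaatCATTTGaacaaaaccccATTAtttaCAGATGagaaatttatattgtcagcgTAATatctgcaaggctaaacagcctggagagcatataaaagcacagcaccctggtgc
Sst: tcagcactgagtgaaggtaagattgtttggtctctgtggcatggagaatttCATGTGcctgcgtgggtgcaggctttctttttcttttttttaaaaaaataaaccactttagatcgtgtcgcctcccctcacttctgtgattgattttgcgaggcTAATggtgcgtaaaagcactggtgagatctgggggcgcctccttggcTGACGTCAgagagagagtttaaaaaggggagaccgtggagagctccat
The *Ins1* promoter held 3 TAAT cores and 2 E boxes, the *Iapp* promoter 5 and 3, the *Ucn3* promoter 2 and 2, the *Gcg* promoter 2 and 3, and the *Sst* promoter 1 and 1. The *Ppy* promoter held 0 of all 3 motifs, and the 4 *Ghrl* promoters, one for each annotated start, held 0 TAAT cores and 0 to 5 E boxes. In *Iapp*, 2 of the cores overlap in ATTAAT. Over 32851 promoters of the same length, 54.9% held TAAT and 66.2% an E box, so both are common letters. TGACGTCA was rarer, at 1.55% of promoters, and *Sst*, whose activation by cyclic AMP through this element is textbook knowledge, held it 48 bases before its start. A match of letters does not show that a factor bound there.

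Counts assigned to genes summed to 35.1 to 67.6 M per library, and the libraries fell into a set of 3 large libraries (control 2, control 3 and mutant 3, 62.2 to 67.6 M) and a set of 5 (35.1 to 41.0 M). *Itgb1* was at 315 to 432 CPM (counts scaled to library size with TMM factors) in the controls and at 193 to 266 CPM in the mutants, without overlap. *Xist* was at 1125 CPM in control 3 and 1225 CPM in mutant 3 and below 1 CPM elsewhere, which makes them the female libraries. The summed acinar (exocrine) markers reached 3797 CPM in control 2 and 11863 CPM in control 3, against 31.8 to 846 CPM in the other libraries. Summed fibroblast, stellate cell and pericyte markers were at 323 to 478 CPM in controls and 657 to 880 CPM in mutants, with 6 of 8 higher at an unadjusted p below 0.05 by edgeR beside 6.8% of all genes, and 7 of 8 within the 5 libraries beside 12.6%. Ductal markers were at 276 to 1596 CPM and 1048 to 2946 CPM, with 3 of 6 higher by the same test and 0 of 6 within the 5 libraries. Summed endothelial markers were at 599.5 to 745 CPM in controls and 595 to 701.6 CPM in mutants. Of 7 endothelial genes, 1 was lower and 0 higher by the same test, beside 7.19% of all genes lower. Within the 5 libraries 3 were lower and 1 higher, beside 10.7% of all genes lower and 12.6% higher. The part of these cells in the hormone values was not tested.

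Of the 8 genes, 6 were among the most abundant RNAs of every library, and *Ucn3* and *Ghrl* were far below them. Per kilobase of transcript, *Ins2* ranked above all 24091 genes in 8 of 8 libraries. Its median level was 39201 RPKM (reads per kilobase, scaled to library size with TMM factors). *Gcg*, *Ins1* and *Iapp* came next, with medians of 17523, 15824 and 14214 RPKM, and each ranked between 2 and 4 in every library. *Gcg* was above *Ins1* in 3 of 8 libraries and *Ins1* above *Iapp* in 6 of 8, so the order of these neighbours was not stable. *Ppy*, at a median of 5549.8 RPKM, was above *Sst*, at 2910.2 RPKM, in 7 of 8 libraries. *Ucn3* followed at 66.1 RPKM, ranking 91 to 1775 among all genes, and *Ghrl* at 10.9 RPKM, ranking 2829 to 8952. The ranges of *Iapp* and *Ppy*, of *Sst* and *Ucn3*, and of *Ucn3* and *Ghrl* did not overlap. The counts behind these levels ran from 119 for *Ghrl* in control 4 to 5384373 for *Ins2* in control 3.

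Together the 8 genes took very different shares of the RNA. They held 6.45%, 14.3%, 20.8% and 6.05% of all counts in controls 1 to 4 and 4.94%, 6.75%, 7.47% and 5.66% in mutants 1 to 4. Controls 2 and 3 were far above all other libraries, while controls 1 and 4 lay among the mutants. The controls averaged 11.9% ± 7.04 and the mutants 6.21% ± 1.12 (SD, n = 4 each), and the difference was within the spread (exact two-sided permutation test, p = 0.2). Within the 5 libraries the means were 5.78% in mutants and 6.25% in controls, a difference of -0.468 percentage points (exact permutation p = 0.5, where 0.1 is the smallest that 2 against 3 allow). In islet RNA, fewer cells of a type and less RNA per cell cannot be told apart.

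**Figure D1:**
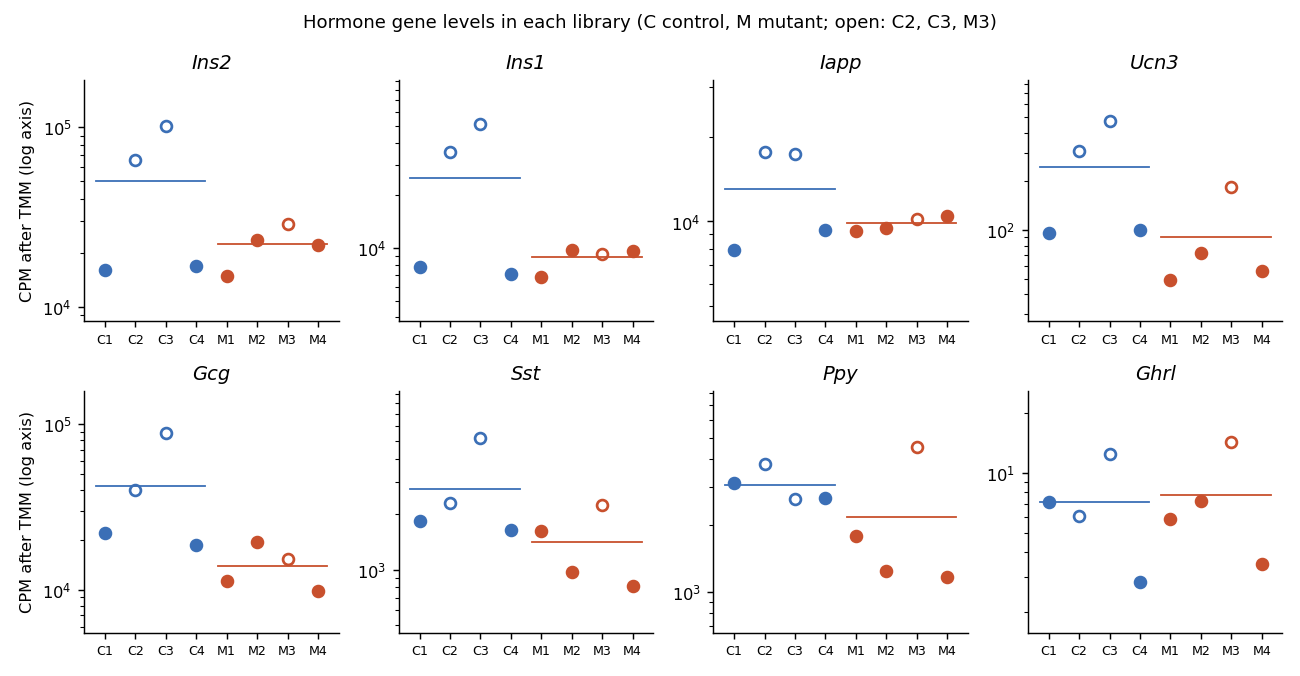
Level of each hormone gene in CPM after TMM scaling (log axis) in control libraries C1 to C4 (blue) and mutant libraries M1 to M4 (orange). Points are single libraries, open points are the large libraries C2, C3 and M3, and lines are group means; C2 and C3 lie above C1 and C4 for *Ins1*, *Ins2*, *Iapp*, *Ucn3*, *Gcg* and *Sst*.

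The insulin genes were high in 2 controls only. *Ins2*, the ancestral mouse insulin gene, stood at 16070.1, 65422, 102308 and 17009 CPM in controls 1 to 4 and at 14967, 23467, 28861 and 22085 CPM in mutants 1 to 4. *Ins1*, the second insulin gene, was at 6828 to 9715 CPM in the mutants, and controls 2 and 3 averaged 5.84 times controls 1 and 4. For both genes controls 1 and 4 lay at or below most mutants, and the groups overlapped. On the log2 scale the mutant over control fold change was -1.17 (SE 0.88) for *Ins2* and -1.52 (SE 0.75) for *Ins1* (adjusted p = 0.534 and 0.382, edgeR's quasi-likelihood test). With a term for the library set, these became -0.31 (SE 0.66) and -0.54 (SE 0.62), and within the 5 libraries both turned positive, at 0.28 (SE 0.28) and 0.23 (SE 0.21). Mutant 3 set against controls 2 and 3 alone, with no test, gave -1.5 and -2.21. Without control 3 the values over the other libraries were -0.56 for *Ins2* and -0.92 for *Ins1*.

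*Iapp*, whose peptide amylin is released with insulin, was the steadiest of the 8 genes. It was at 7941, 17724, 17349 and 9344 CPM in controls 1 to 4 and at 9214, 9444, 10228 and 10473 CPM in mutants 1 to 4. The mutants spanned a narrow band, with control 4 inside it, control 1 below it and controls 2 and 3 above it. Its highest library was 2.23 times its lowest, against 6.84 times for *Ins2* and 9.70 times for *Ucn3*. Its fold change was -0.41 on the log2 scale (SE 0.43, edgeR adjusted p = 0.655) and 0.16 (SE 0.17) within the 5 libraries.

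*Ucn3*, a peptide of mature β-cells that acts on δ-cell receptors, was lower in the mutants within either library set. It was at 95.5, 306, 473 and 99.8 CPM in controls 1 to 4 and at 48.8, 72.0, 184 and 55.3 CPM in mutants 1 to 4. Mutants 1, 2 and 4 lay below every control, and mutant 3 lay above controls 1 and 4 but below controls 2 and 3, the other large libraries. Over all libraries the change was -1.44 on the log2 scale (SE 0.62, edgeR unadjusted p = 0.0463, edgeR adjusted p = 0.351). With the library set term it was -0.86 (SE 0.18, edgeR unadjusted p = 0.00184, adjusted p = 0.139), within the 5 libraries -0.74 (SE 0.16, adjusted p = 0.101 by edgeR), and for mutant 3 against controls 2 and 3 -1.05. Its direction was thus the same in both sets, at a size of 0.74 to 1.05 on the log2 scale. In the large set this rests on mutant 3 alone. The log2 fold change was -2.06 without mutant 3 and -0.90 without control 3. No fit carried it past the adjusted threshold of 0.05.

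*Gcg* (chr2:62474530-62483653, minus strand), the precursor of glucagon, was the only one of the 8 genes called by any tool run. It was at 21908, 40106, 88202 and 18590.0 CPM in controls 1 to 4 and at 11328, 19434, 15286 and 9894 CPM in mutants 1 to 4. Only mutant 2 reached into the control range, just above control 4. The mutant level differed by -1.59 on the log2 scale by edgeR (SE 0.76, adjusted p = 0.375), and by DESeq2 it differed by -1.60 (SE 0.47, adjusted p = 0.0391). The exact two-sided permutation test gave p = 0.0571 against a smallest possible value of 0.0286. Within the 5 libraries the log2 fold change was -0.58 (SE 0.35, edgeR adjusted p = 0.357), and mutant 3 against controls 2 and 3 gave -1.96. Leaving out control 3 alone gave -0.94.

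*Sst* (chr16:23889581-23890844, minus strand), the hormone of δ-cells, was at 1843, 2299, 5163 and 1632 CPM in controls 1 to 4 and at 1622, 971, 2239 and 817 CPM in mutants 1 to 4. Mutants 1, 2 and 4 lay below every control, mutant 1 by a narrow margin, and mutant 3 lay among the controls. The log2 fold change was -0.95 (SE 0.46, edgeR adjusted p = 0.377), -0.66 (SE 0.32) with the library set term, -0.62 (SE 0.29) within the 5 libraries and -0.62 for mutant 3 against controls 2 and 3. The direction was thus the same in both library sets, though mutant 3, at 2239 CPM, was only just below control 2, at 2299 CPM. Without control 3 the log2 fold change over the other libraries was -0.45 (SE 0.36).

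*Ppy* (chr11:102099931-102101300, minus strand), the hormone of PP cells, did not follow the insulin genes. It was at 3127, 3805, 2629 and 2655 CPM in controls 1 to 4 and at 1781, 1245, 4515 and 1173 CPM in mutants 1 to 4. Mutants 1, 2 and 4 lay below every control, whereas mutant 3 was the highest of all 8 libraries, at 3.23 times the mean of the other mutants. The 4 controls were close together, with controls 2 and 3 at only 1.11 times controls 1 and 4. The log2 fold change was -0.49 (SE 0.44, edgeR adjusted p = 0.600) over all libraries and -1.05 (SE 0.20, edgeR adjusted p = 0.0871) within the 5, the largest decrease among the 8 genes in that set, and it was 0.51 for mutant 3 against controls 2 and 3. Without mutant 3 it was -1.13.

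*Ghrl*, the hormone of ε-cells, was the least abundant of the 8, with 119 to 972 counts per library. It was at 7.16, 6.07, 12.5 and 2.84 CPM in controls 1 to 4 and at 5.90, 7.22, 14.4 and 3.51 CPM in mutants 1 to 4. The groups overlapped throughout, and the female libraries, control 3 and mutant 3, were highest in their groups. The log2 fold change was 0.12 (SE 0.51, edgeR adjusted p = 0.927), and the SE leaves its direction undetermined.

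**Figure D2:**
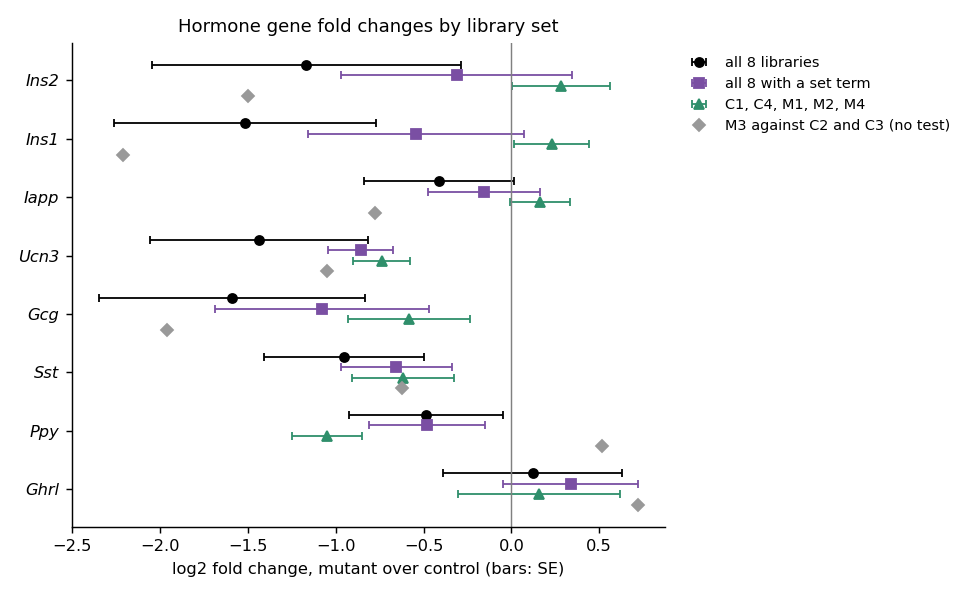
Log2 fold change of mutant over control for each hormone gene from all 8 libraries (black), with a library set term (purple), within C1, C4, M1, M2 and M4 (green), and for M3 against C2 and C3 with no test (grey). Bars are SE; the green and purple values of *Ucn3*, *Gcg*, *Sst* and *Ppy* lie left of 0 by more than 1 SE, while those of *Ins1*, *Ins2* and *Iapp* straddle 0.

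Across the hormone genes as a group, 0 of 8 were called by edgeR at the study's thresholds (adjusted p under 0.05, more than 2-fold). So were 0% of the 15233 genes tested in either direction, in a fit on genotype alone. The study's own fit, which also corrected for batch, called genes both up and down at these thresholds. Among the lower genes it named *Ucn3* and *Slc2a2*, and it reported reduced staining of both proteins. DESeq2 called 1 of 8 (*Gcg*, lower), beside 0.499% of all genes called lower. At an unadjusted p below 0.05, edgeR had 1 of 8 lower (*Ucn3*) beside 7.19% of all genes, and DESeq2 5 of 8 beside 8.72%. In the mutants 7 of 8 had a lower mean over all libraries, beside 49.8% of all genes, and 4 of 8 within the 5 libraries, beside 49.6%. None of the 8 was free of overlap between the groups over all libraries, beside 3.8% of genes lower and 4.4% higher without overlap. Within the 5 libraries *Ucn3*, *Sst* and *Ppy* were free of overlap, all lower in mutants, beside 21.5% of genes. For the 8 genes the median log2 fold change was -1.06 in the full set and -0.21 within the 5, where the medians of all genes were 0.0015 and 0.0026.

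Ratios of hormone genes within a library do not depend on how libraries are scaled to each other, and 14 were compared between the groups. None passed an exact two-sided permutation test on log2 ratios, and the smallest p was 0.0857 before and 0.533 after adjustment over the 14. In the values that follow, insulin stands for *Ins1* plus *Ins2* counts, and a ratio of counts is given without regard to length. Ratios compare proportions only, so a lower ratio can come from either gene.

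The balance of the insulin genes was the most even ratio. For every 1000 *Ins2* counts there were 483, 541, 499 and 415 *Ins1* counts in controls 1 to 4 and 456, 414, 318 and 434 in mutants 1 to 4. Mutant 3 was lowest, and control 4 lay among the mutants. The mutant ratio was 0.833 times the control ratio (log2 difference -0.26, SE 0.14, exact permutation p = 0.0857), and within the 5 libraries it was 0.971 times (exact permutation p = 0.6). So the rise of insulin counts in controls 2 and 3 was shared by both genes, with *Ins1* at 541 and 499 for every 1000 *Ins2* counts there.

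Amylin and insulin were not in a fixed proportion. For every 1000 insulin counts there were 333, 176, 113 and 388 *Iapp* counts in controls 1 to 4 and 423, 285, 269 and 331 in mutants 1 to 4. Controls 2 and 3 were the lowest of all libraries, and controls 1 and 4 lay among the mutants. The log2 difference of mutant minus control was 0.51 (SE 0.44, exact permutation p = 0.343), and -0.08 within the 5 libraries (exact permutation p = 0.8).

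*Ucn3* was low against both of its β-cell partners in mutants 1, 2 and 4. Against 1000 *Iapp* counts there were 12.03, 17.3, 27.3 and 10.7 *Ucn3* counts in controls 1 to 4 and 5.30, 7.62, 17.9 and 5.28 in mutants 1 to 4. The log2 difference was -0.996 (SE 0.52, exact permutation p = 0.143) over all libraries and -0.92 within the 5. Against 1000 insulin counts there were 4.01, 3.04, 3.09 and 4.15 *Ucn3* counts in the controls and 2.24, 2.17, 4.83 and 1.75 in the mutants. The controls were close together whatever their insulin level, mutants 1, 2 and 4 were below all of them, and mutant 3 was above all of them. The log2 difference was -0.48 (SE 0.34, exact permutation p = 0.2). Within the 5 libraries it was -0.999, or 0.5 times the control ratio (exact permutation p = 0.1, the smallest that 2 against 3 allow). For mutant 3 against controls 2 and 3 it was 0.66, of the opposite sign. The same comparison gave -0.28 for *Ucn3* to *Iapp*.

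The proportion of glucagon to insulin was also lowest in a mutant. For every 1000 insulin counts there were 919, 398, 575 and 773 *Gcg* counts in controls 1 to 4 and 519.8, 586, 402 and 312 in mutants 1 to 4. Controls 1 and 4 were above all other libraries, and controls 2 and 3 lay among the mutants. The log2 difference was -0.52 (SE 0.33, exact permutation p = 0.2) over all libraries and -0.88 within the 5 (exact permutation p = 0.2), where the mutants did not overlap the controls. Set against the summed counts of 7 other α-cell identity genes of the same library, *Gcg* had a mutant ratio of 0.76 times the control ratio (log2 difference -0.40, SE 0.22, exact permutation p = 0.114). Within the 5 libraries the log2 difference was -0.61. Most of that sum was *Ttr*, at 432 of 731 CPM in control 1, 4211 of 4925 CPM in control 3 and 393 of 639 CPM in mutant 1.

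For somatostatin and pancreatic polypeptide, the group difference in the ratio to insulin changed sign between the library sets. For every 1000 insulin counts there were 77.3, 22.8, 33.7 and 67.8 *Sst* counts in controls 1 to 4 and 74.4, 29.3, 58.9 and 25.8 in mutants 1 to 4. The corresponding *Ppy* counts were 131, 37.7, 17.1 and 110.3 in the controls and 81.7, 37.5, 119 and 37.0 in the mutants. Controls 2 and 3 and mutants 2 and 4 were low for both genes, and the groups overlapped fully. The log2 differences were -0.07 (SE 0.56) for *Sst* and 0.13 (SE 0.81) for *Ppy*, with exact permutation p of 0.8 and 0.914. Within the 5 libraries they were -0.92 and -1.31, and for mutant 3 against controls 2 and 3 they were 1.09 and 2.22, of the opposite sign.

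The non-β hormones also varied against each other. *Gcg* counts were 11.9, 17.4, 17.1 and 11.4 times those of *Sst* in controls 1 to 4 and 6.98, 20.01, 6.83 and 12.1 times in mutants 1 to 4 (log2 difference -0.45, SE 0.40, exact permutation p = 0.4). The mutants were more scattered than the controls here and lay on both sides of them. The ratio of *Sst* to *Ppy* counts was 0.589, 0.604 and 0.615 in controls 1, 2 and 4 but 1.96 in control 3, and 0.496 to 0.911 in the mutants (log2 difference -0.20, SE 0.47, exact permutation p = 0.8286). *Gcg* was 3.39 to 33.6 times *Ppy* in counts over the 8 libraries, from mutant 3 to control 3, the widest range among these 3 ratios (log2 difference -0.65, SE 0.70, exact permutation p = 0.429). *Ghrl* gave 0.0603 to 0.301 counts for every 1000 insulin counts in controls and 0.111 to 0.378 in mutants, with a log2 difference of 0.96 (SE 0.63, exact permutation p = 0.229). Within the 5 libraries the log2 differences were 0.0342 for *Gcg* to *Sst*, 0.39 for *Sst* to *Ppy*, 0.43 for *Gcg* to *Ppy* and -0.0114 for *Ghrl* to insulin, each of the opposite sign.

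Insulin and somatostatin were further set against other identity genes of their own cell types. Insulin counts were 23.2 to 46.3 times the summed counts of 8 β-cell identity genes in controls and 21.7 to 29.5 times in mutants (log2 difference -0.24, SE 0.26, exact permutation p = 0.4). Controls 2 and 3 were highest, and controls 1 and 4 lay among the mutants. *Sst* counts were 7.02 to 13.9 times those of 5 δ-cell identity genes in controls and 7.62 to 13.7 times in mutants (log2 difference -0.03, SE 0.28, exact permutation p = 0.971). Within the 5 libraries these differences were 0.14 and 0.13. The largest part of the β-cell sum was *G6pc2*, at 305 of 999 CPM in control 1 and 510 of 1006 CPM in mutant 1. The log2 fold change of *G6pc2* was -0.50 over all libraries and 0.67 within the 5. Most of the δ-cell sum was *Rbp4*, at 235 of 262 CPM in control 1 and 145 of 164 CPM in mutant 3.

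**Figure D3:**
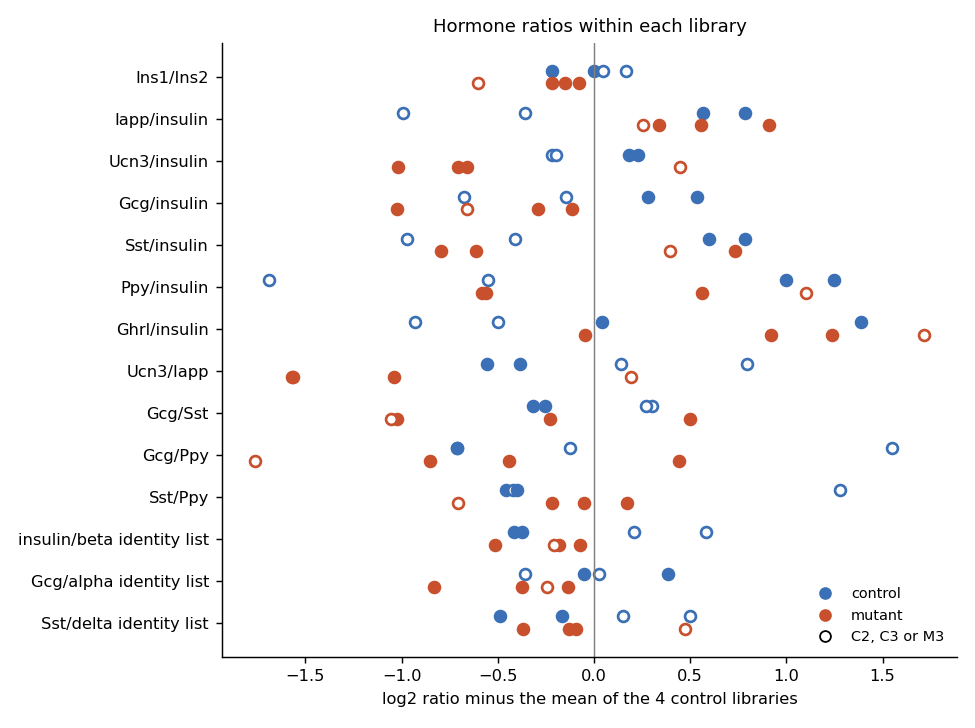
Log2 ratio of hormone counts in each library, centred on the mean of the 4 control libraries, for controls (blue) and mutants (orange), with the large libraries C2, C3 and M3 as open points. Insulin is *Ins1* plus *Ins2*; mutants 1, 2 and 4 lie left of every control for *Ucn3* to insulin and *Ucn3* to *Iapp*, and the groups overlap in all 14 rows.

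The make-up of the hormone transcripts, per kilobase, showed the same pattern from another side. *Ins2* made up 33.7%, 45.6%, 46.0% and 36.5% of the summed hormone level in controls 1 to 4 and 38.1%, 43.6%, 46.2% and 46.2% in mutants 1 to 4. *Gcg* made up 24.6%, 14.97%, 21.2% and 21.4% in the controls and 15.5%, 19.3%, 13.1% and 11.1% in the mutants. *Iapp* ranged from 6.54% in control 3 to 19.7% in mutant 1. *Ins2* thus had its smallest parts in controls 1 and 4, and *Gcg* had smaller parts in mutants 3 and 4 than in any control.

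**Figure D4:**
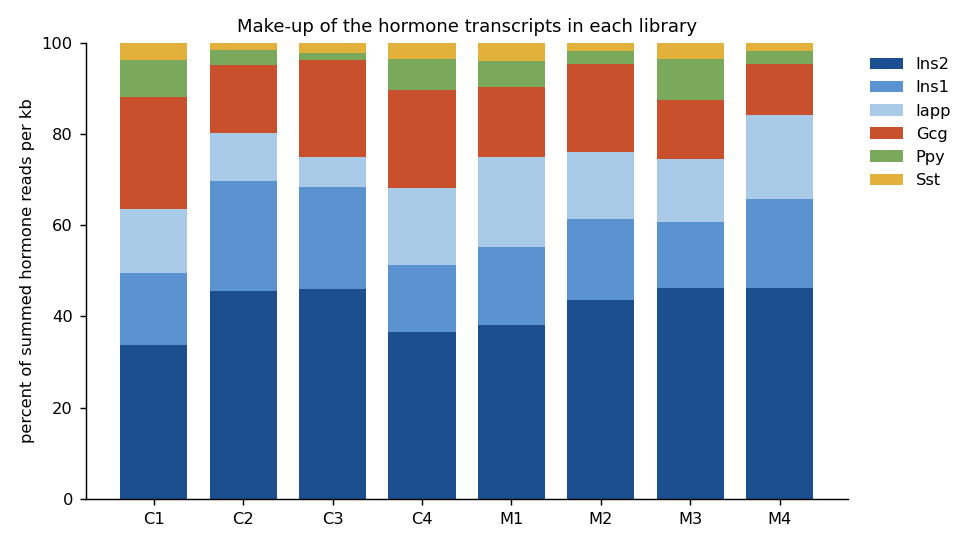
Percent of the summed hormone reads per kilobase that each gene contributed in control libraries C1 to C4 and mutant libraries M1 to M4. *Ucn3* and *Ghrl* are part of the sum but too small to be drawn, at no more than 0.116% and 0.022%; *Ins2* is the largest block in each library, at 33.7% to 46.2%.

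Hormone genes depend on transcription factors, processing enzymes and receptors, which were counted from lists of known genes. No gene of these lists was called by edgeR, and the counts below are at an unadjusted p below 0.05 (edgeR), beside 7.19% of all genes lower and 6.8% higher in the full set and 10.7% lower and 12.6% higher within the 5 libraries. Of 8 β-cell identity genes other than hormones, 3 were lower and 0 higher (3 and 2 within the 5), and the list's median on the log2 scale was -0.51 in the full set and -0.09 within the 5. *Slc30a8*, the zinc transporter of insulin granules, averaged 485 ± 347 CPM in the 4 controls and 136 ± 53.0 CPM in the 4 mutants (SD), and its log2 fold change within the 5 libraries was -0.84. *Slc2a2*, the glucose transporter of β-cells, was at 148 ± 144 CPM and 26.4 ± 12.8 CPM, and changed by -0.79 on the log2 scale within the 5. DESeq2 called both lower.

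Of 7 α-cell identity genes other than *Gcg*, 6 were lower and 0 higher in the full set, against 3 lower and 1 higher within the 5, and the median was -0.97 on the log2 scale in the full set and -0.51 within the 5. *Irx1*, a transcription factor of α-cells, was at 24.5 ± 11.96 CPM in controls and 10.97 ± 3.93 CPM in mutants with overlap, and its unadjusted p within the 5 libraries was 0.136 by edgeR. Of 5 δ-cell identity genes, 2 were lower and 0 higher (2 and 1 within the 5). *Ghsr*, the ghrelin receptor of δ-cells, was at 10.4 ± 1.38 CPM in controls and 5.11 ± 0.83 CPM in mutants without overlap (log2 fold change -1.03, SE 0.19, adjusted p = 0.219 by edgeR), and DESeq2 called it lower. *Rbp4*, a retinol carrier made by δ-cells, was at 227 ± 77.2 CPM and 118 ± 34.3 CPM, also without overlap.

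Of 12 genes for granins and for the processing of precursors, 4 were lower and 2 higher in the full set, against 0 lower and 4 higher within the 5, and their median on the log2 scale was -0.58 in the full set and 0.10 within the 5. The higher pair, *Furin*, a protease of the constitutive secretory pathway, and *Vgf*, a granin-like granule protein, changed by 0.37 (SE 0.14) and 0.72 (SE 0.28) on the log2 scale, each with an edgeR adjusted p of 0.333. Of 19 tested regulators of hormone genes 4 were lower and 0 higher (6 and 1 within the 5), among them the Ets factor *Etv1*, also on the α-cell list, at 47.3 ± 5.95 CPM in controls and 33.0 ± 6.28 CPM in mutants. Of 14 tested hormone receptors 4 were lower and 0 higher (3 and 1 within the 5), *Ghsr* and *Ramp1*, a subunit of the amylin receptor at 3.75 ± 2.82 CPM and 1.16 ± 0.237 CPM, having the smallest p. Of 10 tested genes of other regulatory peptides 3 were lower and 1 higher in the full set and 0 either way within the 5, where the median was 0.37 on the log2 scale. The smallest p were those of *Npy*, at 10.8 ± 8.33 CPM in controls and 1.57 ± 1.03 CPM in mutants, and *Adcyap1*, which was below 2 CPM in every library. *Npy* was called lower by DESeq2.

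The genes that tracked each hormone most closely were found among 9852 genes with a mean of at least 10 CPM, by the SD of the log2 ratio over the 8 libraries. As a description only, since all share these libraries, *Ins1* was tracked by *Atp1b2* (SD 0.185), *Hspa5* (0.203) and *Ins2* (0.232), and *Ins2* by *Atp1b2* (0.132), *Manf* (0.189) and *Cox6a2* (0.214). *Hspa5* and *Manf* encode proteins of the endoplasmic reticulum, and *Atp1b2* a sodium pump subunit. *Iapp* was tracked by *Slc39a7* (0.0575), *Uso1* (0.0781) and *Trabd* (0.0793), closer than any gene tracked another hormone. *Ucn3* was nearest to *Cdh8* (0.174), *Ppp1r1a* (0.178) and *Ddc* (0.234). Near *Gcg* were *Pappa2* (0.312) and *Relt* (0.318), and near *Sst* were *Gatsl2* (0.282), *Arg1* (0.298) and *Plekhh2* (0.3). The closest genes to *Ppy* were *Zim1* (0.250), *Idh2* (0.288) and *Trub1* (0.312). For *Ghrl* the SDs were larger, from 0.448 for *Ctgf* to 0.454 for *Dennd2a* and 0.460 for *Cntfr*. Only for *Ins1* was another hormone gene among its 3 nearest.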

How the data were processed

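RNA from islets of 4 control and 4 *Itgb1* mutant samples was sequenced by the authors as single reads of 50 bases after ribosomal RNA depletion. The authors trimmed reads with Trimmomatic and FASTP, aligned them to mm10 with STAR and deposited raw counts per gene from featureCounts at default parameters, which ignore strand and drop reads that map to several places. GRCm38, edgeR, featureCounts and STAR are named in the submitters' processing notes. A second table of the authors' own fold changes and p-values, with 8 per-library CPM columns whose names could not be matched to samples, was not used here.

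Counts were scaled by TMM, passed through edgeR's low count filter and fitted on genotype alone with edgeR 4.0.16 (quasi-likelihood test, R 4.3.3). P-values were adjusted by Benjamini-Hochberg over the 15233 genes tested, and calls needed an adjusted p under 0.05 with more than a 2-fold change. Depth was 35.1 to 67.6 M counts. The study also used an unnamed batch term, and a term for the library set was tried as an alternative; whether the library sets are the authors' batches is not known. The SE of a fold change is its size over the square root of the F statistic. CPM and RPKM both use TMM scaling, and RPKM also use the deposited gene lengths. Ratios had 0.5 added to each count and, like shares of counts, were put through exact permutation tests, two-sided, in Python 3.11.15. No library was present more than once (smallest chi-square per gene of any pair 28.1).

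Members and lists were chosen with earlier results of these data known. Genes named beside the 8 hormone genes are, in each list, the 2 of smallest p, and the 3 whose level tracked each hormone gene most closely. *Ttr* and *G6pc2* are named besides, as the largest parts of the α-cell and β-cell sums. Results of some genes that this rule names are not reported here. Alternatives were DESeq2 1.42.0, the likelihood ratio test, RLE factors, total counts, no filter, a library set term, the 5 smaller libraries, the replicate block, leaving out each library, and other ratio settings. Simulated counts with known changes were used to check the fits. The simulation gave all genes the same dispersion and held no library sets, so it does not cover the spread of these libraries. Of the deposited symbols, 26 read as dates.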

Additional observations from a re-analysis of the deposited data

Results flagged for a closer look

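Of 46 sets of 4 values checked for a sample far from the others, 1 was past Dixon's 95% limit for 4 samples, and chance alone flags about 1 in 20. It was the log2 ratio of *Sst* to *Ppy* in the controls, where control 3 was high with a gap of 0.965 of the range. Control 3 had the highest *Sst* (5163 CPM) and the lowest *Ppy* (2629 CPM) of the 4 controls.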

How the results depend on the processing

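The count of genes called was 0 by edgeR's quasi-likelihood test (1036 up and 1096 down at an unadjusted p under 0.05), 187 by DESeq2, 91 by the likelihood ratio test, 3 with the library set term and 10 within the 5 smaller libraries. It was 0 to 0 when single libraries were left out. Hormone genes called were 0, except 1 by DESeq2, and 0 to 0 without single libraries. No ratio passed in any setting (0 to 0 without single libraries), but the tests left little or no room for a pass. Within the 5 libraries the smallest possible exact permutation p is 0.1, and with the replicate block the smallest exact sign-flip p is 0.125. No ratio could pass in either. Over all 8 libraries the smallest possible exact permutation p is 0.0286. After adjustment over 14 ratios, a pass there needed many ratios at that value together. The difference in hormone share ranged from -7.64 to -2.73 percentage points without single libraries. With the replicate block, 0 genes and 0 hormone genes were called, the share difference was -5.70 points (exact sign-flip p = 0.125), and the log2 fold change was -1.32 for *Ucn3* and -0.91 for *Sst* (edgeR adjusted p = 0.119 and 0.161); no call changed. Deviations of same-numbered libraries from their group means correlated at 0.434, -0.0378, 0.426 and 0.224 over genes. Mutants 1, 3 and 4 correlated best with the control of their own number. Mutant 2 correlated best with control 4 and control 2 with mutant 4, so the numbers were not taken to pair samples. Total counts in place of TMM shifted the median log2 fold change of all genes by 0.15 and the share with higher means from 50.2% to 69.6%.

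Fold changes that turned direction were those of *Ins1* (0.23), *Ins2* (0.28) and *Iapp* (0.16) within the 5 libraries, *Ppy* (0.51) for mutant 3 against controls 2 and 3, and *Ghrl*, which ranged from -0.37 to 0.55 without single libraries (-0.14 without control 4, -0.37 without mutant 3). Log2 ratios that turned within the 5 were *Iapp*/insulin (-0.0755), *Ppy*/insulin (-1.31), *Ghrl*/insulin (-0.0114), *Gcg*/*Sst* (0.0342), *Gcg*/*Ppy* (0.43), *Sst*/*Ppy* (0.39), insulin/β-cell list (0.14) and *Sst*/δ-cell list (0.13). Exchanging labels only within the library sets, an alternative chosen after seeing the data, turned *Ppy*/insulin (-0.0505) and *Sst*/δ-cell list (0.14), and *Ins1* alone as insulin turned *Sst*/insulin (0.11). Without single libraries, *Sst*/insulin ranged from -0.40 to 0.19, *Ppy*/insulin from -0.43 to 0.55, *Sst*/*Ppy* from -0.35 to 0.22 and *Sst*/δ-cell list from -0.20 to 0.14. The cause of these turns was not tested.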
